A study of Mus musculus with 6 samples.

Results

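Dissociated, methanol-fixed and sorted glomerular cells were compared with whole live glomeruli across the transcriptome, with 1 bulk RNA-seq library each. The genes described are those with at least 100 reads over both libraries, 12692 of the 49492 genes in the tables and of the 24305 with a read in either library. Glomeruli are the kidney's filters, balls of capillaries that pass plasma into Bowman's space. Both libraries came from 8-week-old males of the outbred mouse strain CD1 IGS, with no mutant allele or drug named in the labels. The first, called whole glomeruli here, was made from 500 ng of total RNA of lysed, unfixed isolated glomeruli. For the other, called dissociated cells, glomeruli were taken apart into cells, which were sorted and fixed in 80% methanol in PBS, and 95 ng of total RNA was used. Dissociation, fixation, sorting and RNA input therefore differ together between the libraries and cannot be told apart. The labels give neither the enzyme or time of dissociation, nor the sorting gate, nor the number of animals. The other 4 of the 6 libraries of the series are Drop-seq libraries (replicates 1 to 4) of glomerular cells dissociated and fixed in 80% methanol, and they were used only to group genes by cell class.

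The libraries held 28407317 reads on genes (whole glomeruli) and 24555632 (dissociated cells), and the genes kept covered 99.6% and 99.7% of them. Levels are CPM, read counts relative to the library total, scaled with TMM factors of 1.11 and 0.900, so that 3 reads correspond to 0.0951 and 0.136 CPM. CPM also grows with transcript length, so levels are compared between libraries and not between genes. The ratio given throughout is the log2 of dissociated cells over whole glomeruli, with a prior count of 2, so that 1 stands for 2-fold higher and -1 for 2-fold lower in dissociated cells. Because each side is 1 library, no test was possible, and the 95% intervals (exact, Clopper-Pearson) cover counting error only. In bulk RNA, fewer cells of a type and less RNA per cell cannot be told apart.

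A glomerulus is built of podocytes, whose foot processes cover the capillaries from outside, fenestrated endothelial cells that line them, mesangial cells that hold the loops together, and the parietal epithelium of Bowman's capsule. Cells that are detached from their matrix can switch on immediate-early genes, whose transcripts appear without new protein synthesis and whose products then drive secondary genes, among them their own inhibitors. Isolated glomeruli often carry fragments of attached tubule and arteriole, so transcripts of those cells are part of the comparison.

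Promoter sequences are shown for 4 genes that stand for the groups described next: the immediate-early factor gene Fos, the NF-kB inhibitor gene Tnfaip3, the heat-shock chaperone gene Hspa1b and the proximal tubule phosphate transporter gene Slc34a1. The first 3 were higher in dissociated cells (log2 ratios 3.67, 5.15 and 1.86) and the last was lower (-7.65). Each run holds the 250 bases before the RefSeq start (GRCm38.p6), read 5′ to 3′ on the strand of the gene, with matches to 7 of the 9 motifs in capitals. The GC box, which stood in most promoters, and the full HNF1 motif are not marked. Fos lies on the plus strand (chr12:85473640-85473889), and its capitals mark an NF-kB match at -214 and a TATA match at -33, counted from the start. Tnfaip3 lies on the minus strand (chr10:19015411-19015660), with TATA at -225, AP-1 at -136 and NF-kB at -125 and -12. Hspa1b lies on the minus strand (chr17:34959239-34959488), with NF-kB at -133 and a heat-shock element at -104. Slc34a1 lies on the plus strand (chr13:55399398-55399647), with the short HNF1 motif at -89 and -61.
Fos: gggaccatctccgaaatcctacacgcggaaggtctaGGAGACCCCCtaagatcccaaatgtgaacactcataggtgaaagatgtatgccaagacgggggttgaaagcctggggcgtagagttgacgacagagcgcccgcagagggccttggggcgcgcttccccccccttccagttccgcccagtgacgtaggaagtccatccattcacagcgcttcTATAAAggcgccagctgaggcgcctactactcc
Tnfaip3: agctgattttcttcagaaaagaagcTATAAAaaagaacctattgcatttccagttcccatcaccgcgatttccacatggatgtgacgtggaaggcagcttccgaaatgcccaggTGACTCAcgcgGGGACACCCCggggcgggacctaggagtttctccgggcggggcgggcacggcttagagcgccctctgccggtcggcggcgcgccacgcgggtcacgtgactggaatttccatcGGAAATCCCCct
Hspa1b: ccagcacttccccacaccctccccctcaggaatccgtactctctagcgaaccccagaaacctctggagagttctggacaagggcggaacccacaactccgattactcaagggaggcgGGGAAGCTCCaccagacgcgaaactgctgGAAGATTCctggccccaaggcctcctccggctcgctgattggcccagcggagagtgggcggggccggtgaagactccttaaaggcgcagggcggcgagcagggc
Slc34a1: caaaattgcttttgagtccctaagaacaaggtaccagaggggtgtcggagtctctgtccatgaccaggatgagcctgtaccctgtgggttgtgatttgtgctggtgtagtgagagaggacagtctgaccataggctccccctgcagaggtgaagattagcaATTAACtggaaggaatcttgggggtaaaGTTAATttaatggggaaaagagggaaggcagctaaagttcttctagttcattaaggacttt

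Motifs were searched on both strands from 250 bases before to 50 after the start, in the promoters of the 9593 genes kept that RefSeq's table holds (159 of the 236 genes at least 4-fold higher and 842 of the 1172 at least 4-fold lower). TATAAA, the letters of the TATA box, was counted at any position in this stretch. It stood in 21.4% of the promoters of the higher genes, 10.8% of those of the lower genes and 6.94% of all. The cAMP response element TGACGTC stood in 11.9%, 1.31% and 5.73%, and the AP-1 site TGANTCA, bound by Fos and Jun dimers, in 10.7%, 6.18% and 4.59%. The CArG box of serum response factor was found in 3.77%, 2.14% and 1.38%, and the NF-kB motif in 14.5%, 12.4% and 10.2%. The heat-shock element GAANNTTC was as rare in the higher genes (3.77%) as in the lower (4.75%) and all genes (5.45%), but stood in 10 of the 19 chaperone promoters. The short HNF1 motif GTTAAT, named for a factor of tubule epithelium, stood in 6 of 15 proximal tubule marker promoters, 7.48% of lower, 3.77% of higher and 4.17% of all. The full palindromic HNF1 motif, which holds the short one, matched 0 of 9593 promoters, and the GC box GGGCGG stood in 61.6%, 55.0% and 65.2%. In the 21 promoters of immediate-early genes the AP-1 site was in 0, the cAMP response element and the CArG box in 1 each, NF-kB in 6 and TATA in 5. A match is a run of letters and not a measured binding site. These 9 motifs are all that were searched, and the short HNF1 motif and the 4 promoters shown were chosen after matches were seen.

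Across all 12692 genes the median ratio was -0.02, with quartiles at -0.70 and 0.53. In dissociated cells 1347 genes were at least 2-fold higher (10.6%) and 2423 at least 2-fold lower (19.1%), and for 1010 and 1961 of these the whole counting interval lay beyond 2-fold. At 4-fold, 236 genes were higher (1.86%) and 1172 lower (9.23%). The 10 largest gains in CPM included those of Fos, which went from 942 to 11970 CPM, and of Fosb, Itm2b, Jun, Atf3, Eef1a1, Egr1, Enpep and Vim. The largest losses were those of Igfbp5 (6180 to 269 CPM), Ehd3 (1849 to 153) and the VEGF receptor gene Kdr (1417 to 188), then Epas1, Itga8, Tns3, Neat1, Nrp1, Tns1 and Col4a1. The number of genes 2-fold higher depended on the scaling: with total counts and no factor the median ratio moved by -0.30, and 759 genes were 2-fold higher and 3180 lower, so that higher genes made up 19.3% of those beyond 2-fold and not 35.7%.

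**Figure D1:**
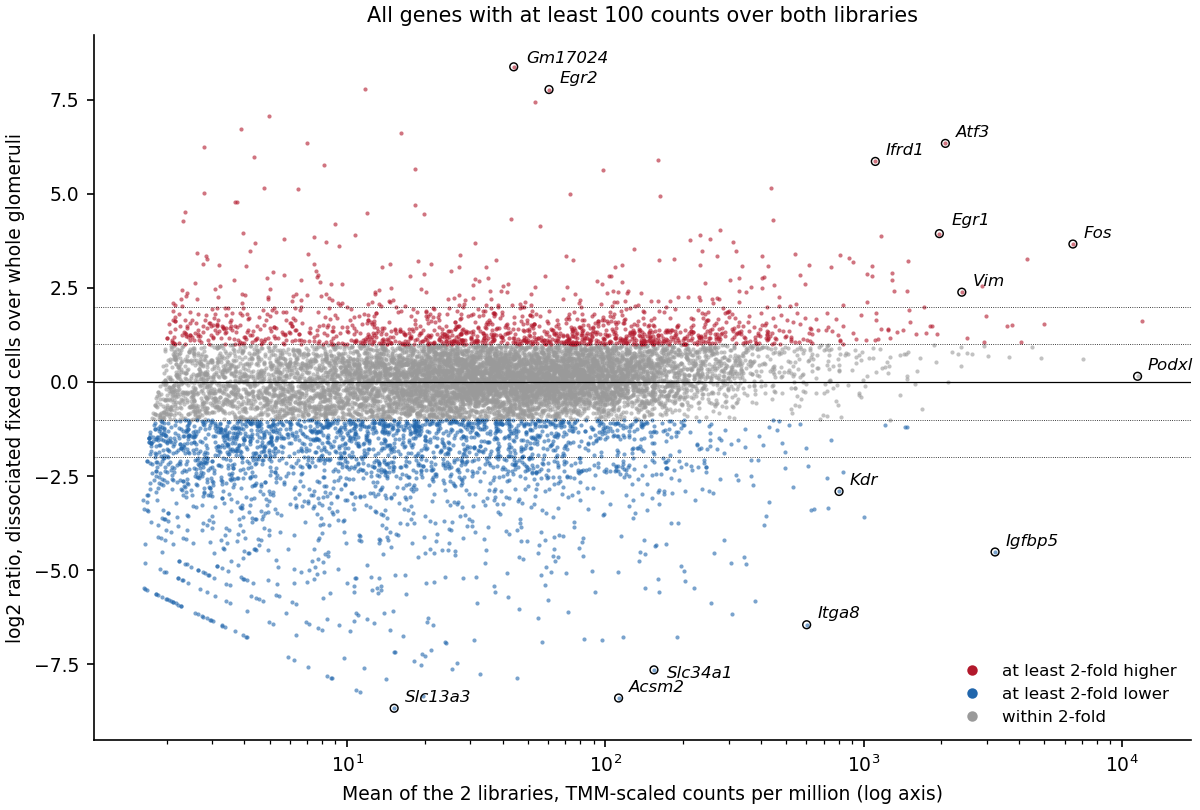
The log2 ratio of each of the 12692 genes (vertical axis) is plotted against its mean level in the 2 libraries in TMM-scaled CPM (log axis), with lines at 2-fold and 4-fold. Lower genes (blue) outnumber higher genes (red), 2423 to 1347, and Fos, Atf3, Egr1 and Ifrd1 stand out at high levels.

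The genes with the highest ratios were mostly near-silent in whole glomeruli. Genes with a few reads there passed the minimum of 100 reads only through dissociated cells, so for them a high ratio follows from the filter. Gm17024 had 6 reads in whole glomeruli and 1946 in dissociated cells (ratio 8.38, interval 7.73 to 10.30), and Egr2, a zinc finger factor of the immediate-early response, had 15 and 2661 (7.78, 7.26 to 8.82). Fam71a had 1 and 517 reads (7.79, 7.04 to 14.83). In contrast to these, 3 of the 20 highest were abundant genes. Atf3, a stress-induced partner of Jun, had 1588 reads in whole glomeruli and 90426 in dissociated cells (6.34, 6.27 to 6.42). Ifrd1, a transcriptional coregulator, had 1179 and 48186 (5.86, 5.78 to 5.95), and Tnfaip3, which encodes the ubiquitin-editing NF-kB inhibitor A20, had 756 and 18839 (5.15, 5.05 to 5.26). The rest included Maff (165 and 6964 reads), Nr4a3 (120 and 4227), the cytokine gene Il6 (2 and 191), the endothelin gene Edn2 (6 and 207), the immune receptor gene Lag3 (20 and 793) and Rbpjl (8 and 708). Gm38357 and Gm5979 had 0 reads in whole glomeruli against 221 and 172, at least 105-fold and 81.9-fold higher against 3 reads, and Gm26802 had 0 against 123, at least 58.5-fold higher. The last 3 are a transcript of unknown status, a pseudogene and a lincRNA in GENCODE.

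**Figure D2:**
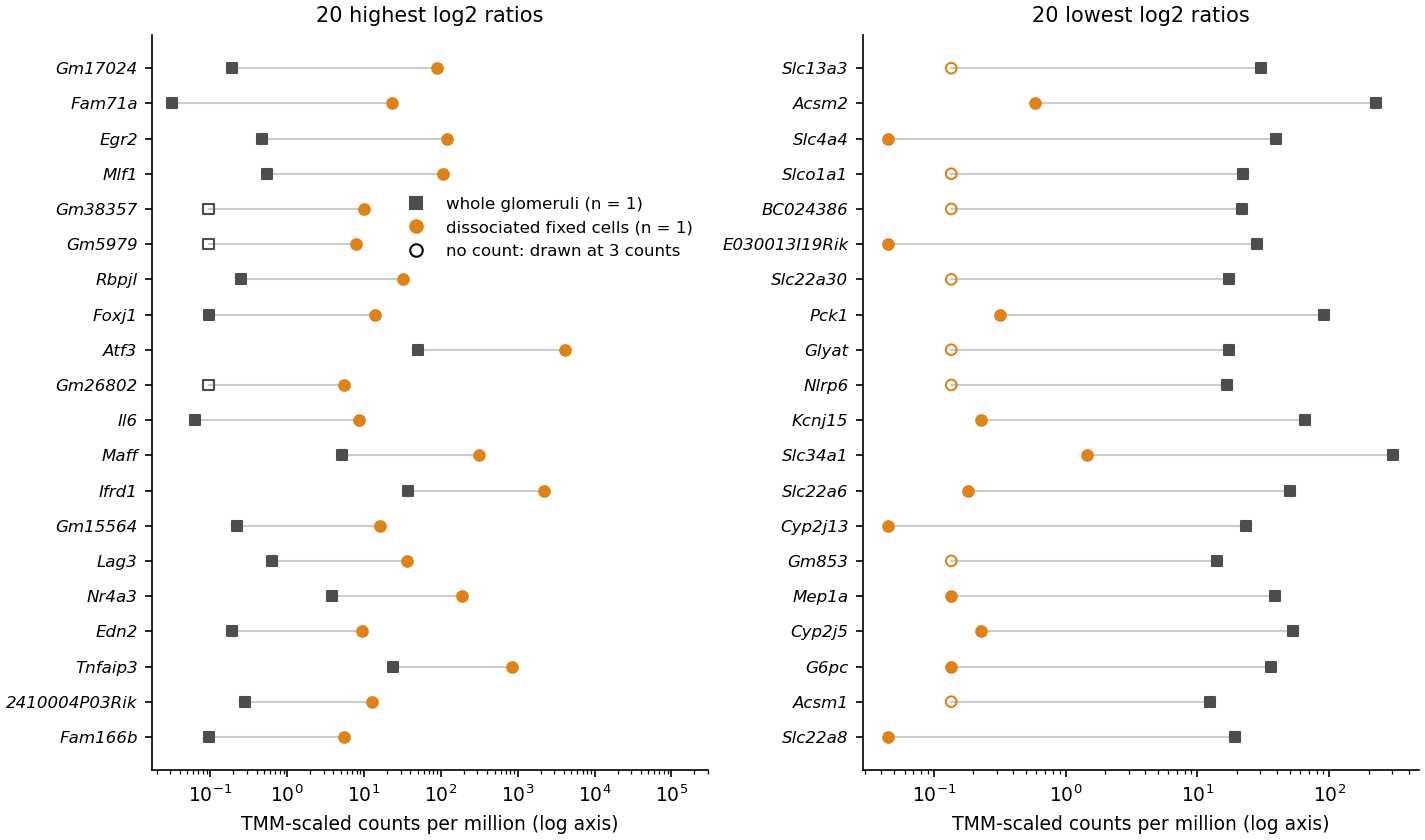
TMM-scaled CPM (log axis) of the 20 genes with the highest and the 20 with the lowest ratio, 1 library each, squares for whole glomeruli and circles for dissociated cells, with open symbols at 3 reads for genes without a read. Atf3, Ifrd1 and Tnfaip3 are the genes of the left panel that were above 20 CPM in whole glomeruli, and no gene of the right panel is above 2 CPM in dissociated cells.

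The same 40 genes were looked up in the Drop-seq libraries, which were not used to choose them but also hold dissociated, fixed cells. All 20 highest genes had at least 20 UMIs (transcripts counted once by their molecular identifier) summed over the named cell classes, up to 60214 for Atf3. Their highest CPM of UMIs lay in smooth muscle and renin-like cells for 7, in podocyte-like cells for 5, in parietal epithelial-like cells for 5 and in endothelial-like cells for 3. For 7 of the 20 genes that class held fewer than 20 UMIs, as few as 3 for Gm17024 and 4 for Foxj1, so their order of classes is uncertain. Il6 stood at 125 CPM in smooth muscle and renin-like and 34.5 in endothelial-like cells against 0.235 in podocyte-like cells, from 92 UMIs in all. Edn2 was highest in podocyte-like cells, which held 157 of its 166 UMIs. Of the 20 lowest genes, none reached 20 UMIs, 6 had no UMI and the highest had 9.

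Immediate-early transcription factors had a median ratio of 2.83 over the 30 members kept (of 32), against -0.02 for all genes. No other list or symbol family had a higher median, except the motile cilium genes that were added later (3.36). That list was added because Foxj1 and Mlf1 were among the highest genes, and both count in its median, so it cannot be ranked with the others. Of the 30 immediate-early members kept, 23 were at least 2-fold higher (10.6% of all genes were) and 0 at least 2-fold lower. Together their reads made up 0.533% of the gene counts of whole glomeruli and 3.99% of those of dissociated cells. Fos, which pairs with Jun to form AP-1, had 29724 reads in whole glomeruli and 264588 in dissociated cells (942 and 11970 CPM, ratio 3.67, interval 3.65 to 3.69). Its paralogue Fosb had 25363 and 170957 reads (3.27, 3.25 to 3.29), and Jun 26194 and 108101 (2.56, 2.54 to 2.58). Egr1, a zinc finger factor that responds to growth factor signals, had 7553 and 81463 (3.94, 3.91 to 3.98). Fos, Fosb and Jun were thus already above 800 CPM in whole glomeruli, in contrast to Egr2 and Maff. Ier5 was the lowest member, with 3156 and 1847 reads (-0.26, -0.34 to -0.18).

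Of the regulators that damp MAP kinase signalling or speed mRNA decay, 17 of 28 members kept were at least 2-fold higher and 5 at least 2-fold lower (19.1% of all genes were), with a median of 1.42. Dusp14, a phosphatase of the dual-specificity family, was highest with 138 reads in whole glomeruli and 3117 in dissociated cells (4.99, 4.76 to 5.27). Btg2, an antiproliferative factor that recruits the deadenylase, had 9039 and 59195 reads (3.22, 3.19 to 3.26), and Dusp1 29902 and 58732 (1.49, 1.47 to 1.51). The members at least 2-fold lower were Spry4, Rgs2, Dusp4, Spred1 and Spry2, 3 of which belong to the Sprouty and Spred inhibitors of receptor tyrosine kinase signalling. Spry4 had 3232 and 303 reads (-2.89, -3.08 to -2.73). Rgs2, which speeds GTP hydrolysis on G proteins, had 6398 and 978 reads (-2.19, -2.29 to -2.10), and it was also led by smooth muscle and renin-like cells in Drop-seq.

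NF-kB chemokines, cytokines and feedback genes had a median of 1.38 over 27 members kept of 35, with 15 at least 2-fold higher and 3 at least 2-fold lower. Nfkbia, the inhibitor that NF-kB itself induces, had 4520 reads in whole glomeruli and 32739 in dissociated cells (3.37, 3.33 to 3.42). Tnfaip3 and Il6, given with the highest genes, belong to the same list. Vcam1, an adhesion molecule for leukocytes, went the other way with 2032 and 77 reads (-4.18, -4.56 to -3.88), and Csf1 and Cxcl16 were the other members at least 2-fold lower. Immune cell markers were higher in the dissociated cells beside these genes: 9 of 12 markers kept (of 22) were at least 2-fold higher and 0 lower, with a median of 1.57. Their summed share went from 0.0115% to 0.0247% of gene counts, and 10 markers had under 100 reads. Lyz2 of macrophages had 511 and 1277 reads and S100a9 of neutrophils 53 and 297. The part of immune cells in the NF-kB list was not tested.

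Heat-shock chaperones had a median of 0.997, with 12 of 24 members at least 2-fold higher and 0 lower. Dnajb4, a cochaperone of HSP70, was highest with 1657 reads in whole glomeruli and 12984 in dissociated cells (3.48, 3.41 to 3.56). The constitutive chaperone Hspa8 had 22265 and 34690 reads (1.15, 1.13 to 1.18), and Hsp90ab1 50864 and 61371 (0.78, 0.77 to 0.80). Chordc1 was lowest (-0.36). The inducible pair Hspa1a and Hspa1b stood at 1.62 and 1.86, but the near-identical copies share reads, so these 2 values are uncertain. The heat-shock factor gene Hsf1 itself was at -0.04.

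Genes of other stress pathways differed less. In the unfolded protein response of the endoplasmic reticulum 7 of 21 members kept were at least 2-fold higher and 0 lower, with a median of 0.75. The chaperone gene Hspa5 had 35457 and 60090 reads (1.27, 1.26 to 1.29), and Ddit3, the factor CHOP, 811 and 3986 (2.81, 2.70 to 2.92). In the amino acid and integrated stress response the median was 0.48, with 6 of 19 members higher and 2 lower. Its regulator Atf4 had 5239 and 22490 reads (2.62, 2.57 to 2.66) and Nupr1, a small chromatin-associated stress protein, 7116 and 42586 (3.09, 3.06 to 3.13), whereas the lipoprotein receptor gene Vldlr had 537 and 74 (-2.32, -2.72 to -1.99). The p53 targets were close to all genes, with a median of -0.13, 3 of 20 higher and 1 lower. Cdkn1a, the p21 inhibitor of cyclin-dependent kinases, had 2300 and 4079 reads (1.34, 1.27 to 1.41). In the glycolysis and hypoxia list 4 of 23 members were higher and 0 lower, with a median of 0.45 and with the vasodilator peptide gene Adm highest (2849 and 16897 reads, 3.08, 3.02 to 3.14). Vegfa, the podocyte-derived endothelial growth factor, had 54675 and 64075 reads (0.74, 0.73 to 0.76).

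Clock genes stood near the heat-shock chaperones, with a median of 0.95, 10 of 20 members at least 2-fold higher and 1 lower. The repressor gene Cry2 was highest (1227 and 9601 reads, 3.48, 3.40 to 3.57). Nr1d1, a heme-binding nuclear receptor of the clock, had 3882 and 11799 reads (2.12, 2.07 to 2.17), and Per1 5175 and 10901 (1.59, 1.54 to 1.64). Hlf, a bZIP factor of the clock output, had 1001 and 103 (-2.75, -3.07 to -2.47), so the list was split. The core activators Arntl and Clock stood at -0.05 and 0.12. The labels give no time of day for either library.

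Interferon-stimulated genes had a median below 0 (-0.75), as did the p53 targets. Of 23 members kept, 8 were at least 2-fold lower (34.8%, against 19.1% of all genes) and 1 higher (4.35%, against 10.6%). Ifi44 had 1188 reads in whole glomeruli and 147 in dissociated cells (-2.49, -2.76 to -2.25) and was led by endothelial-like cells in Drop-seq. Oas2, at 100 reads in all just inside the minimum, stood at -2.10. Gbp2, an interferon-induced GTPase, was the member that was higher (577 and 1034, 1.35, 1.21 to 1.50). The YAP targets had a median of 0.28, which became -0.02 with total counts and no factor, and were split between Cyr61 (5087 and 35315 reads, 3.31, 3.27 to 3.35) and Gadd45b (3.77) on one side and Amotl1, an angiomotin of cell junctions (17162 and 656, -4.19, -4.31 to -4.08), on the other. Ctgf, the best known CCN family target, had 53039 and 18599 reads (-0.998, -1.02 to -0.97), just within 2-fold. Of 23 oxidative stress genes 4 were higher and 4 lower (17.4% each, against 10.6% and 19.1% of all genes). Their median of 0.17 changed sign with the scaling. The secreted peroxidase gene Gpx3 (24534 and 1887 reads, -3.19) was lowest and the thioredoxin reductase gene Txnrd1 (2296 and 5027, 1.64) highest.

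A pair of lists was added after the highest genes were seen, because Foxj1 and Mlf1 were among them and Cyp1a1 led the cytochrome P450 genes. The genes that prompted these lists are counted in them. Of 24 motile cilium genes 7 were kept, and 4 of these were at least 2-fold higher. Foxj1, the master factor of motile cilia, had 3 reads in whole glomeruli and 306 in dissociated cells (6.36, 5.63 to 9.47), Mlf1 17 and 2340 (7.43, 6.94 to 8.40) and Tppp3 393 and 2844 (3.36, 3.22 to 3.52), with Mns1 as the fourth (3.36). Ccdc39, an assembly factor of the ciliary axoneme, had 269 and 16 reads (-3.43, -4.39 to -2.83), and 17 members had under 100 reads. Of 8 targets of the aryl hydrocarbon receptor 4 were kept. Cyp1a1 had 6 and 161 reads (4.80, 4.11 to 6.73) and Tiparp 1009 and 11560 (4.03, 3.94 to 4.13), while Cyp1b1 (0.57) and Nqo1 (0.41) stayed within 2-fold.

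Most genes of the translation and respiration machinery had ratios above 0, and ribosomal protein genes most often passed 2-fold, which 10.6% of all genes did. Of 82 cytosolic ribosomal protein genes kept, 59 were at least 2-fold higher and 0 lower, with a median of 1.11 and a range from 0.20 (Rpl7l1) to 2.53 (Rpl22l1). With total counts and no factor their median was 0.81, within 2-fold. Rpl10 had 12441 reads in whole glomeruli and 22901 in dissociated cells (1.39, 1.36 to 1.43), and Rpl4 11538 and 16763 (1.05, 1.02 to 1.09). The family's share of gene counts went from 1.18% to 2.12%. Eef1a1, the elongation factor that brings aminoacyl-tRNA to the ribosome, had 61303 and 122606 reads (1.51, 1.50 to 1.53). Nuclear genes of oxidative phosphorylation had a median of 0.77 (26 of 90 higher, 2 lower), with Atp5b of the ATP synthase at 0.59 and Ndufa4l2, led by smooth muscle and renin-like cells, lowest at -2.94. Mitochondrial ribosomal protein genes had 0.70 (11 of 77 higher, 0 lower) and chaperonin and prefoldin genes 0.75 (2 of 13 higher). The share past 2-fold was at or below that of all genes for proteasome subunits (4 of 38, median 0.56), vacuolar ATPase genes (2 of 23, 0.53) and aminoacyl-tRNA synthetases (1 of 21, 0.58). Genes of the tricarboxylic acid cycle and fatty acid oxidation had 0.41, and all 26 lay within 2-fold.

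The mitochondrially encoded genes kept numbered 10 of 37 and had a median of 0.58, with 3 at least 2-fold higher. The protein-coding transcripts mt-Co1 (175303 and 189229 reads, 0.62) and mt-Cytb (89718 and 99081, 0.66) were close to the nuclear genes of respiration, whereas the ribosomal RNA mt-Rnr1 had 3281 and 15517 (2.75, 2.70 to 2.81). Their share of gene counts was 1.56% and 1.93%. Histone genes had a median of 0.88, with 10 of 21 members kept (of 91) at least 2-fold higher and 0 lower, led by Hist1h4h (72 and 259 reads, 2.32, 1.98 to 2.76). The linker histone gene Hist1h1c had 3121 and 10023 (2.20, 2.14 to 2.26), and 70 histone genes had under 100 reads. Proliferation genes did not follow: their median was -0.57, with 2 of 15 higher and 2 lower. Near-identical histone and ribosomal protein copies share reads with each other or with pseudogenes, so single members are uncertain.

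Of 20 cholesterol genes 0 were at least 2-fold higher and 3 lower (15.0%, below the 19.1% of all genes), with a median of -0.23. The synthesis gene Hmgcs1 had 3566 reads in whole glomeruli and 1792 in dissociated cells (-0.48, -0.56 to -0.40). Splicing regulators stayed close to all genes, with a median of 0.25 that changed sign with the scaling and 2 of 29 at least 2-fold higher. The kinase gene Clk1, which phosphorylates SR proteins, had 9794 and 22068 reads (1.69, 1.65 to 1.72), and its substrate family member Srsf1 10137 and 3724 (-0.93, -0.99 to -0.88).

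**Figure D3:**
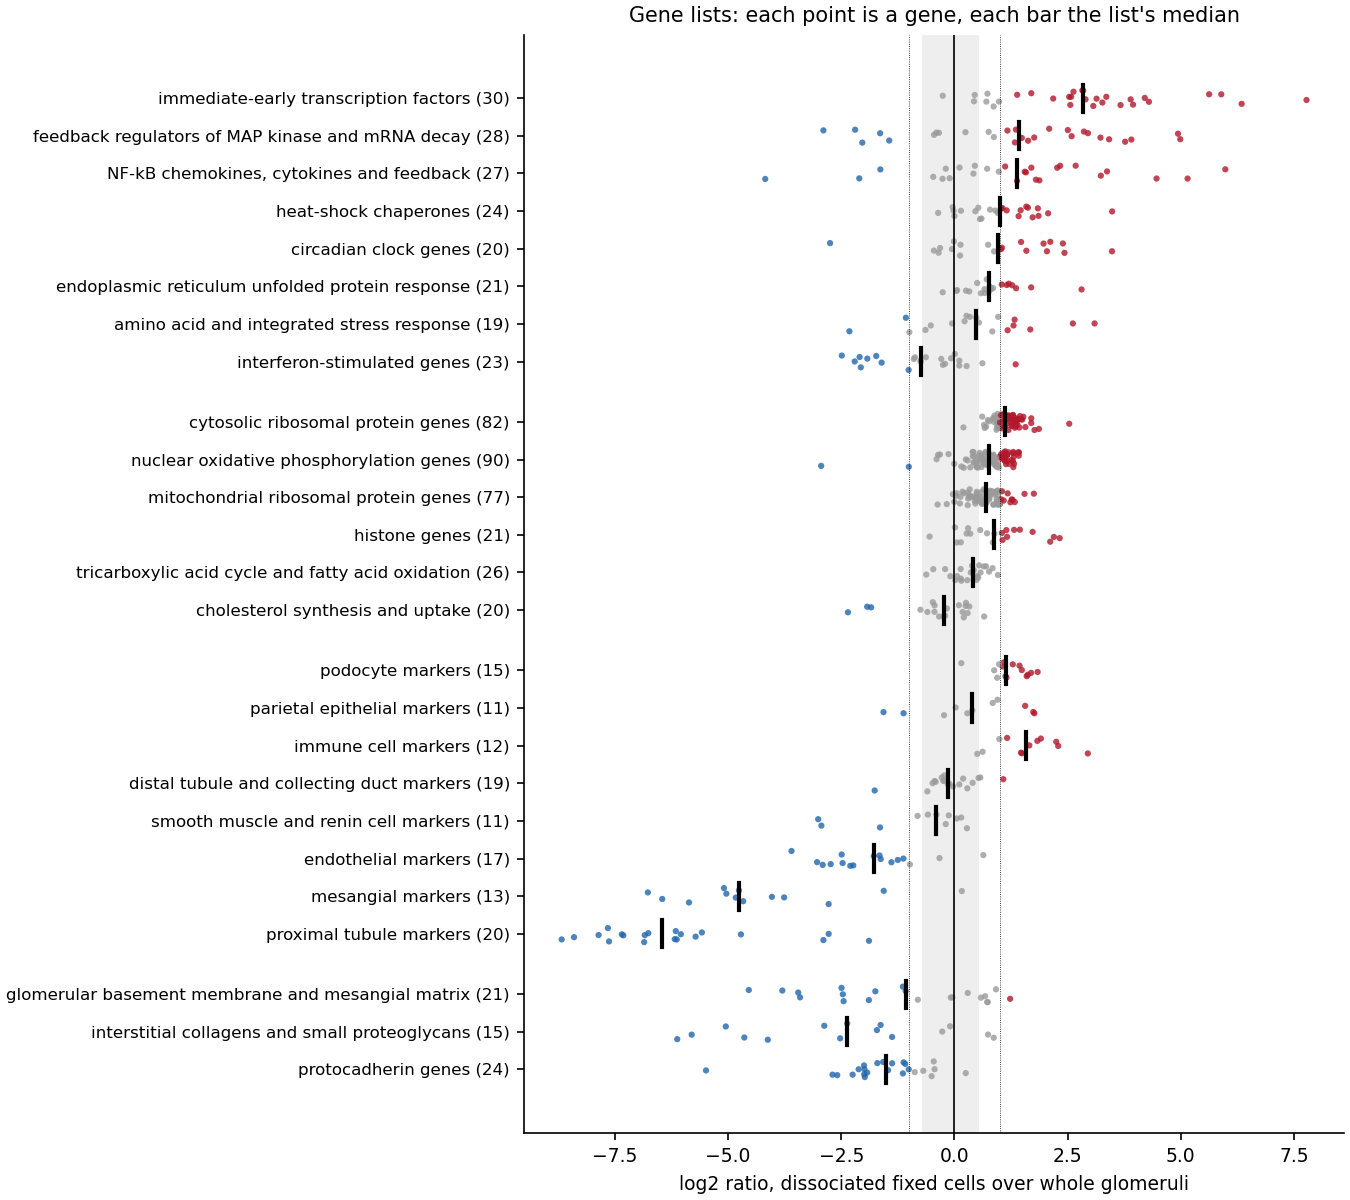
Log2 ratio of each member kept (points, 1 gene each) of 25 gene lists and families, with the number kept in parentheses, the list median as a black bar, the median of all genes as a vertical line and their middle 50% as a grey band. Immediate-early factors lie to the right (median 2.83), mesangial (-4.76) and proximal tubule markers (-6.47) to the left, and ribosomal protein genes in a narrow group around 1.11.

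Proximal tubule genes were the lowest in the comparison. All 20 markers were at least 2-fold lower, with a median of -6.47, or -6.31 with the 2 genes without a read in dissociated cells set to the bound of 3 reads, and their share of gene counts went from 0.289% to 0.0146%. Slc34a1, the sodium-phosphate cotransporter of the brush border, had 9677 reads in whole glomeruli and 32 in dissociated cells (307 and 1.45 CPM, -7.65, -8.28 to -7.23). Kap, an androgen-regulated tubule protein gene, had 19291 and 185 reads (-6.18, -6.41 to -5.98). Slc13a3, a dicarboxylate transporter gene, had 959 reads in whole glomeruli and 0 in dissociated cells, at least 224-fold lower. Cyp4b1, which is not restricted to the tubule, was nearest to 0 with 14273 and 2700 reads (-1.89, -1.95 to -1.83), and it was among the leading genes of the endothelial-like Drop-seq cluster. The 20 lowest genes of all were mostly of this kind: acyl-CoA synthetases (Acsm1, Acsm2), organic anion and cation transporters (Slc22a6, Slc22a8, Slc22a30, Slco1a1), and the gluconeogenic enzymes Pck1 (2866 and 7 reads) and G6pc (1138 and 3). The neighbouring paralogues Acsm1 and Acsm2, and Cyp2j5 and Cyp2j13, resemble each other, and reads between them may be split. An exception was E030013I19Rik, with 892 and 1 reads (-7.89, -14.59 to -6.81), which GENCODE places antisense to the mesangial gene Itga8 (-6.45), so the reads of this pair may not be fully separable.

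Distal tubule and collecting duct markers were nearer to all genes. Their median was -0.15 (-0.45 with total counts), with 1 of 19 members kept at least 2-fold higher and 1 lower, and their share went from 0.289% to 0.191%. Slc12a3, the thiazide-sensitive cotransporter of the distal convoluted tubule, had 30190 and 13961 reads (-0.60, -0.63 to -0.57). Slc12a1 of the thick ascending limb had 2504 and 516 (-1.76, -1.90 to -1.63), and Pvalb, a calcium-binding protein of the early distal convoluted tubule, had 1331 and 1971 (1.08, 0.98 to 1.18). Within the tubule, the markers of the proximal segment and of the later segments were therefore apart by more than 6 log2 units in their medians, both in the same 2 libraries.

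Mesangial markers had a median of -4.76, with 12 of 13 members kept at least 2-fold lower, and their share went from 0.570% to 0.0330%. Itga8, the integrin that binds nephronectin in the glomerular matrix, had 37513 reads in whole glomeruli and 298 in dissociated cells (1189 and 13.5 CPM, -6.45, -6.63 to -6.30). Ptn, a heparin-binding growth factor gene, had 11802 and 74 reads (-6.77, -7.15 to -6.47). Pdgfrb, the receptor that all mural cells carry, had 29439 and 3002 (-2.78, -2.83 to -2.73). Pawr was the exception at 0.16, a value that became negative with total counts and no factor. Igfbp5, the gene with the largest loss in CPM, had 195046 and 5952 reads (-4.52, -4.56 to -4.48).

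Smooth muscle and renin cell markers differed from the mesangial list, with a median of -0.40 and 3 of 11 members kept at least 2-fold lower, and their share went from 0.125% to 0.0538%. The renin gene Ren1 had 9261 reads in whole glomeruli and 5946 in dissociated cells (-0.13, -0.17 to -0.08). Myl9, the regulatory light chain of smooth muscle myosin, had 10126 and 923 (-2.94, -3.04 to -2.84), and Notch3, which specifies arterial mural cells, 4179 and 362 (-3.01, -3.17 to -2.86). The contractile genes Acta2 and Myh11 stood at 0.05 and -0.19. Fibroblast and perineural genes had a median of -1.18 (5 of 8 kept lower, 1 higher) and red blood cell genes -1.19 (3 of 5 kept lower, 0 higher).

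Endothelial markers were at least 2-fold lower in 14 of 17 cases, with a median of -1.78, and their share went from 1.52% to 0.757%. Ehd3, which encodes an endocytic recycling protein, had 58346 and 3371 reads (-3.60, -3.65 to -3.55). Kdr had 44704 and 4163 reads (-2.91, -2.96 to -2.87), and Nrp1, its coreceptor, 43941 and 5881 (-2.39, -2.43 to -2.35). Epas1, the hypoxia-inducible factor HIF-2α of endothelium, had 41821 and 2878 (-3.35, -3.40 to -3.29). Plat, the tissue plasminogen activator gene, had the opposite sign, with 119833 and 130595 reads (0.64, 0.63 to 0.65). Cldn5, a tight junction gene that is not among the markers, stood at 1.47 (6273 and 12195 reads).

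Podocyte markers were higher, with 11 of 15 members at least 2-fold higher, 0 lower and a median of 1.15, and their share went from 2.98% to 4.80%. With total counts and no factor their median was 0.84, within 2-fold. The cell-cycle inhibitor gene Cdkn1c had the highest ratio, with 15443 reads in whole glomeruli and 38629 in dissociated cells (1.84, 1.81 to 1.86). Podxl, the sialomucin of the foot process surface, had 343641 and 267284 (0.15, 0.14 to 0.16), a value that became negative with total counts and no factor. Parietal epithelial markers had a median of 0.39, with 3 of 11 higher and 2 lower. Cd44, an adhesion receptor of activated parietal cells, had 71 and 173 reads (1.77, 1.39 to 2.22), and the nephron progenitor factor Pax2 85 and 19 (-1.57, -2.45 to -0.92). Vim, an intermediate filament gene of podocytes and mesenchyme, had 24281 and 88976 reads (2.39, 2.37 to 2.41) and exceeded every podocyte marker in its ratio.

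Matrix genes stood on both sides. The collagen IV chains of the mature glomerular basement membrane, which podocytes secrete, had ratios above 0, of which only Col4a5 passed 2-fold, and not with total counts (0.93). Col4a3 had 51843 reads in whole glomeruli and 68551 in dissociated cells (0.92, 0.90 to 0.93), Col4a4 33039 and 38162 (0.72, 0.70 to 0.74) and Col4a5 9415 and 15458 (1.23, 1.19 to 1.27). The chain Col4a1 of endothelial and mesangial matrix had 35981 and 2368 (-3.41, -3.47 to -3.35), and its partner Col4a2 stood at -3.80. Nid1, which links laminin to collagen IV, had 15926 and 477 reads (-4.54, -4.68 to -4.42). Lama5 and Lamb2 of the basement membrane laminin stood at 0.29 and -0.08, both of which changed sign with the scaling, against -3.45 for Lama2. Of 15 interstitial collagen and proteoglycan genes kept, 11 were at least 2-fold lower, with a median of -2.37. Postn, a matricellular protein gene, had 4439 and 43 reads (-6.12, -6.64 to -5.74) and Bgn, a small proteoglycan, 20876 and 584 (-4.64, -4.77 to -4.53), whereas Sparc had 62013 and 72589 (0.74, 0.73 to 0.76) and Col1a2 4647 and 5941 (0.87, 0.81 to 0.92). Among all 26 collagen genes kept, 16 were at least 2-fold lower and 1 higher (median -2.11). The proteases of the ADAM and ADAMTS families followed (13 of 19 lower, 2 higher, median -1.43), with Adamts5 at 23603 and 289 reads (-5.83, -6.01 to -5.67).

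Several families of surface and signalling genes had more lower than higher members, beside 19.1% lower and 10.6% higher of all genes. Of 24 protocadherin genes kept, 18 were at least 2-fold lower and 0 higher, with a median of -1.52. Pcdh12, an endothelial member, had 13623 and 211 reads (-5.49, -5.70 to -5.30). In the integrin genes 11 of 24 were lower and 5 higher (median -0.70), and the most abundant, Itgb1 (50452 and 34307 reads, -0.04), was near 0 with a sign that changed with the scaling. Itga3, the laminin-binding partner of Itgb1 in podocytes, had 33047 and 30414 reads (0.39). Semaphorins and plexins had -0.55, with 11 of 23 lower and 2 higher, and Sema3g, which podocytes express, at 0.94 (96764 and 130287 reads) against Plxnd1, an endothelial receptor, at -2.96 (14600 and 1317). The 240 solute carrier genes kept had a median of -0.57, with 94 at least 2-fold lower and 13 higher, and their highest member was Slc25a25, a calcium-regulated mitochondrial carrier (962 and 6421 reads, 3.25, 3.15 to 3.35). Of 10 claudin genes kept, which form tight junctions, 4 were lower and 2 higher (median -0.18), and their share went from 0.0460% to 0.0610%. C2H2 zinc finger genes named Zfp, 322 of them, had -0.32, with 67 lower (20.8%, near the share of all genes) and 12 higher. Zfp36, which speeds the decay of AU-rich mRNAs, had 7858 and 39943 reads (2.86, 2.82 to 2.89).

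To group genes by cell class with a readout that the ratio did not use, the Drop-seq barcodes were clustered and each gene was assigned to the class that led it: at least 20 UMIs there, the highest level there in each of the 4 libraries and at least 4-fold above every other class. The 20 UMIs had to be met in dissociated, fixed cells. Of the genes at least 4-fold lower in bulk, 47.3% had under 20 UMIs over the named classes, against 3.34% of those within 2-fold. The class medians leave such genes out. Of 13993 barcodes kept from 15465, 10449 were podocyte-like (74.7%), 1729 endothelial-like (12.4%), 928 distal tubule-like (6.63%), 363 parietal epithelial-like (2.59%) and 335 smooth muscle and renin-like (2.39%). A cluster of 123 barcodes (0.879%) stayed unnamed and 66 immune-like barcodes were too few per library. A set of 7 barcode sequences stood in all 4 libraries. Genes led by endothelial-like cells, with the markers themselves left out, had a median bulk ratio of -1.50 over the 298 kept, with 198 at least 2-fold lower and 13 higher. Genes led by smooth muscle and renin-like cells had -1.44 over 124, with 72 lower (58.1%) and 10 higher (8.06%). Those led by distal tubule-like cells had -0.23 over 394, with 70 lower (17.8%) and 17 higher (4.31%). Of all genes kept, 19.1% were lower and 10.6% higher, so the lower share of the distal tubule-like group was near that of all genes. The medians were 0.81 for the 12 genes led by podocyte-like cells (5 higher, 0 lower) and 0.95 for the 11 led by parietal epithelial-like cells (5 higher, 1 lower). The 11853 genes led by no class had a median of 0.01, with 1297 higher and 2082 lower. The class names were rebuilt from marker genes, and the podocyte-like share depends on the clustering. With a Leiden resolution of 0.5 in place of 1, a cluster of 2882 barcodes was named for proximal tubule markers. Its mean marker score was 0.70 for these and 0.63 for podocyte markers. At a resolution of 1 the smooth muscle and renin-like cluster scored 3.46 for its own markers and 2.92 for mesangial markers. No cluster was named for mesangial markers, so genes that mesangial cells also express may be among those led by the smooth muscle and renin-like class.

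**Figure D4:**
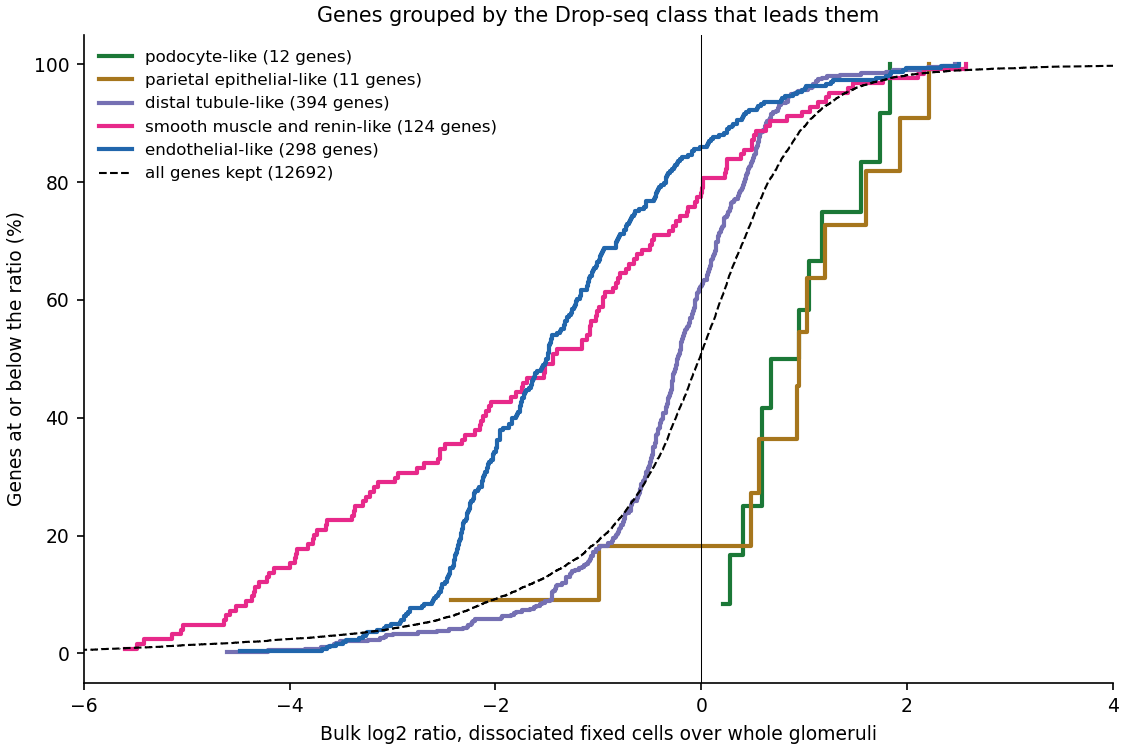
Cumulative share of genes (vertical axis, percent) at or below each bulk log2 ratio (horizontal axis), for genes led by each Drop-seq class and for all genes kept (dashed). The endothelial-like (298 genes) and smooth muscle and renin-like (124) curves lie left of all genes, the podocyte-like (12) and parietal epithelial-like (11) curves right of them.

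Within each class the genes spread widely. Among those led by endothelial-like cells, Sgk1, a kinase induced by glucocorticoids, had 35126 reads in whole glomeruli and 8448 in dissociated cells (-1.54, -1.58 to -1.51), Adgrf5, an adhesion receptor, 29033 and 6040 (-1.75, -1.79 to -1.71) and the planar polarity gene Vangl2 1587 and 48 (-4.49, -4.98 to -4.12). The highest was Tnfrsf10b, a death receptor gene, with 138 and 557 reads (2.51, 2.26 to 2.81). Among those led by smooth muscle and renin-like cells, the filament genes Flna (38867 and 4677, -2.54) and Cald1 (25940 and 3702, -2.29) were lower, Gdf10 was lowest (5636 and 80, -5.60) and the immediate-early gene Nr4a2 highest (276 and 1161, 2.58). Spon1 (711 and 966 reads, 0.95) and Pamr1 (487 and 1038, 1.60) of the parietal epithelial-like group had ratios above 0, of which Pamr1 passed 2-fold, and Bmp4 was lower (868 and 111, -2.44).

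The Drop-seq cells were dissociated and fixed, as were those of the dissociated bulk library, so detection there is no separate support for the ratio. Of the 1172 genes at least 4-fold lower in bulk, 554 (47.3%) had under 20 UMIs in the named classes, against 14 of the 236 at least 4-fold higher (5.93%) and 298 of the 8922 within 2-fold (3.34%). Of the 618 lower genes with at least 20 UMIs, 41.7% were highest in endothelial-like and 40.8% in smooth muscle and renin-like cells and 0.809% in podocyte-like cells. Among all genes kept with at least 20 UMIs, these shares were 22.8%, 21.4% and 16.8%. Of the 222 higher genes with at least 20 UMIs, 30.2% were highest in podocyte-like, 26.1% in parietal epithelial-like and 4.95% in distal tubule-like cells, against 16.8%, 18.1% and 20.9% of all genes. The lower genes had a median of 46 reads in the dissociated bulk library, against 617 for all genes and 1361.5 for the higher genes, and 232 of them had at most 10. The part of this level in detection was not tested. Of the 236 higher genes, 42 stood in the 4 lists of immediate-early, feedback, heat-shock and NF-kB genes, and 16 had at most 10 reads in whole glomeruli. By the minimum number of reads over both libraries, any kept gene with at most 10 reads in either library must differ at least 4-fold. The counts of 232 and 16 therefore follow from the filter, and they were the same over all genes kept.

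Noncoding and unnamed transcripts stood at both ends. The 771 transcripts with Gm or Rik symbols that were kept had a median of -0.13, with 116 at least 2-fold higher (15.0%) and 197 lower. By GENCODE biotype, lincRNAs had a median of -0.64 (16 of 139 higher, 50 lower) and antisense transcripts -0.49 (21 of 137 higher, 46 lower), whereas processed pseudogenes had 0.84 (32 of 85 higher, 4 lower). The shares of all genes kept were 10.6% higher and 19.1% lower. When all genes were put into 5 groups by mean CPM, the lowest group had a median of -0.52 (245 of 2539 higher, 921 lower). The part of level in the biotype medians was not tested. Neat1, the RNA scaffold of paraspeckles, had 63693 reads in whole glomeruli and 19504 in dissociated cells (-1.19, -1.22 to -1.17), and Malat1 13050 and 13393 (0.55, 0.52 to 0.59). The RNase P RNA gene Rpph1 had 4 and 101 reads (4.53, 3.77 to 7.08), and 11 of 20 members of the nuclear and noncoding RNA list were at least 2-fold higher. Snhg11 had 143 reads in whole glomeruli and 0 in dissociated cells, at least 33.4-fold lower.

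Some of the highest unnamed transcripts lie in or behind higher genes on the same strand. Gm17024 (GRCm38, chr12:40209487-40211073, minus strand) is annotated as sense-intronic within Ifrd1 (chr12:40201567-40248504), and Gm38357 (chr3:51231917-51234380, plus strand) lies within Noct, a deadenylase-like gene at 1.73. Fam71a starts 5479 bases after the end of Atf3, and Gm26802 starts 1926 bases after the end of Fosb. Of the 227 placed genes at least 4-fold higher, 9 (3.96%) lay inside another kept gene on their strand, against 0.895% of all 12407 placed genes and 0.957% of those at least 4-fold lower. Genes that start within 10 kb after the end of another kept gene made up 12.3% of the higher genes and 17.7% of all placed genes. Of the 38 genes that start within 10 kb after a gene at least 4-fold higher, 12 were at least 2-fold higher and 3 lower, with a median of 0.50. Of all genes kept, 10.6% were higher and 19.1% lower. Whether reads of such transcripts came from the neighbouring gene was not tested. Chromosomes were alike, with medians from -0.10 to 0.12 over 20 chromosomes.

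Over all genes, the ratio went with transcript length and with mean level. Genes were put into 5 groups of about equal size by their longest annotated transcript. From the shortest to the longest group the medians were 0.43, 0.09, -0.08, -0.19 and -0.30. In the shortest group (up to 1989 bases) 498 of 2482 genes were at least 2-fold higher, in the longest (from 5328 bases) 151 of 2482. Across the 12407 placed genes Spearman's rank correlation with length was -0.25, a description across genes, which are not replicates and share the 2 libraries. It was -0.23 without ribosomal and oxidative phosphorylation genes and -0.28 within the 292 placed genes led by endothelial-like cells, where the medians ran from -0.75 in the shortest to -2.02 in the longest group. With the mean CPM of the 2 libraries, which also enter the ratio, the correlation was 0.26, and the medians of 5 groups ran from -0.52 at the lowest level to 0.29 at the highest. The trend with level was reversed within the 298 genes led by endothelial-like cells. There the correlation was -0.21, and the medians ran from -0.90 at the lowest level to -1.75 at the highest. With GC content of the transcript the correlation was -0.06.

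**Figure D5:**
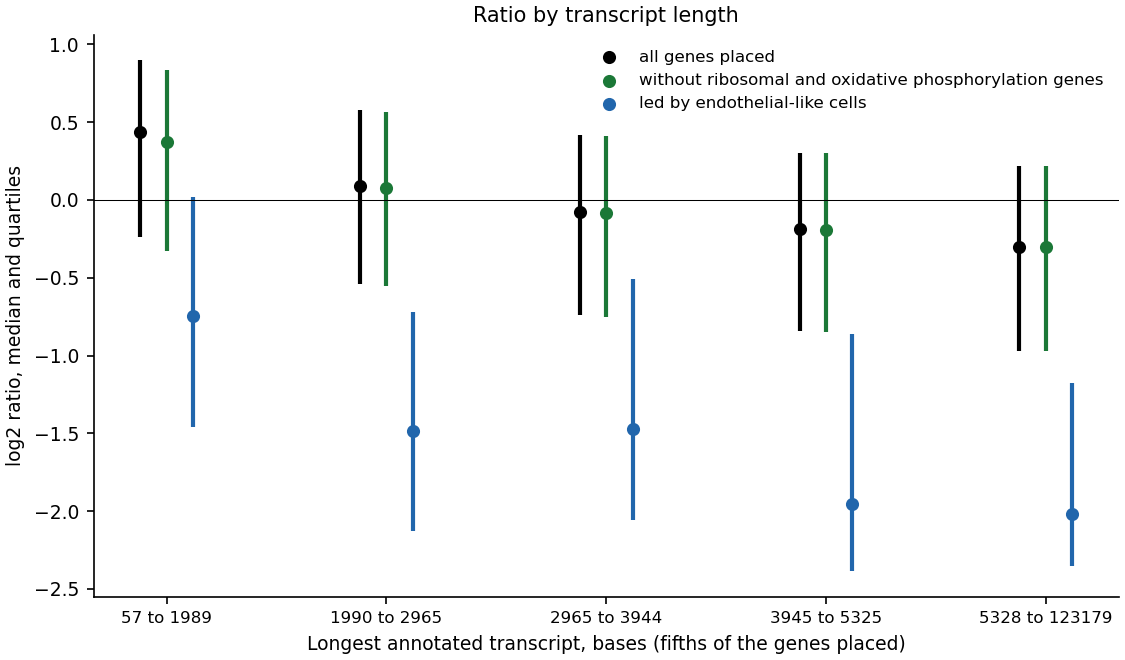
Median (points) and quartiles (lines) of the log2 ratio by 5 groups of transcript length in bases, for all genes placed, for genes outside the ribosomal and oxidative phosphorylation families and for genes led by endothelial-like cells. All 3 sets lie highest in the shortest group (0.43 for all genes) and lowest in the longest (-0.30).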

How the data were processed

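Raw read counts per gene were deposited by the authors for both bulk libraries, 1 library per group, and UMI counts for the 4 Drop-seq libraries. Bulk libraries were made with a stranded mRNA kit, per the labels' protocols, and STAR and HTSeq are named in the submitters' processing notes. Versions, genome build, annotation and strand setting are not given in the sources used here. HTSeq's summary rows were left out. Among these, reads on no feature came to 9.68% (whole glomeruli) and 6.14% (dissociated cells) of gene counts and summary rows together.

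Genes with at least 100 counts over both libraries were kept, and ratios were computed from CPM scaled with TMM factors (edgeR 4.0.16, R 4.3.3) with a prior count of 2. With 1 library per group there is no test, and a gene is counted as higher or lower past a 2-fold or 4-fold ratio. Exact 95% intervals (Clopper-Pearson, scipy 1.17.1) and the floor of 3 counts cover counting error only, since bulk reads carry no molecular identifiers. The ratio and the interval were tested on simulated counts, in which genes were changed by known folds, as many up as down. The 2-fold and 4-fold thresholds, an excess of lower genes and spread between libraries were not part of that test. Biotypes, lengths and positions were matched by symbol to GENCODE vM21 (GRCm38) for 12407 of 12692 genes, and promoters to RefSeq (GRCm38.p6) for 9593. That build may not be the one the reads were aligned to.

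Drop-seq barcodes were filtered, clustered with scanpy 1.11.5 and named from marker genes, and no doublets were removed. The floor for a cluster's leading genes was set to detection in 10% of its cells after clusters had been seen. Named genes are the 20 highest and 20 lowest ratios, the 10 largest gains and losses in CPM, and the extreme and most abundant members of lists, families and classes. A few others were named after their values were seen. Members and lists were chosen with earlier results of these data known. Some members are not reported here.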

Additional observations from a re-analysis of the deposited data

How the results depend on the processing

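With total gene counts and no factor 759 genes were 2-fold higher, and with totals that leave out mitochondrially encoded and the most abundant genes 847 were (3019 lower), against 1347. With at least 1000 counts 1049 genes were 2-fold lower, 138 were 4-fold higher and 489 were 4-fold lower, as fewer genes (8022) were kept, and with at least 20 counts 401 were 4-fold higher. The other scalings moved the median of all genes by 0.10 (upper quartile) and 0.03 (median of ratios). A 2-fold lead in place of 4-fold gave medians of -1.10 for endothelial-like, -0.90 for smooth muscle and renin-like and -0.0386 for distal tubule-like genes, and 1.10 over 49 podocyte-like genes. Leaving out each Drop-seq replicate in turn gave 0.63 to 0.99 for podocyte-like, -1.51 to -1.48 for endothelial-like, -1.44 to -1.28 for smooth muscle and renin-like, 0.93 to 0.95 for parietal epithelial-like and -0.23 to -0.19 for distal tubule-like genes. The median changed sign with the scaling in 8 of 59 lists and families, and the ratio in 23 of 282 named genes. No paired analysis was possible because each bulk group is 1 library. Leaving out a bulk library was not run, since no comparison would remain. Genes with few reads are limited by depth.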
